A study of Drosophila melanogaster with 6 samples.

Results

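Gut was set against carcass in adult Drosophila melanogaster, over all genes and over both genotypes of the study. The members were chosen by tissue label: 4 of the 6 libraries, which are 2 of gut and 2 of carcass. The remaining 2 libraries, from thorax, entered the fit and lent it their spread. Each tissue had 1 library of ACT88F>Foxo RNAi flies, called foxo RNAi here, and 1 of ACT88F>W1118 flies, called control. Both genotypes carried the Act88F-Gal4 driver, built on the promoter of a flight muscle actin, and the foxo RNAi flies also carried a hairpin against foxo, the transcription factor of the insulin pathway. All flies were labelled as 10 days old. The labels also give 10 days on a sugar and yeast diet begun 2 to 3 days after eclosion, which does not add up to that age, and which of these is exact is not clear. Carcass was labelled as fat body and was the body left once eggs and intestines had been taken out. Sex was not given in the sources used here, and neither was the number of flies behind a library. The study's title is about muscle, so gut against carcass describes the study's tissues and was not its stated question.

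The fly intestine is an epithelium of large absorptive enterocytes with a few hormone-secreting enteroendocrine cells, renewed by stem cells and wrapped in visceral muscle. Enterocytes secrete digestive enzymes into the lumen behind a chitinous peritrophic matrix, and a short acid region in the midgut holds copper cells. The carcass holds the abdominal fat body, which stores fat and glycogen, makes yolk, lipid carriers and blood sugar, and secretes antimicrobial peptides. It also holds oenocytes, epidermis, body wall muscle, heart, nephrocytes and haemocytes.

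foxo, the targeted gene, was read in every library. It had 88.1 CPM (reads on a common library size, scaled by the trimmed mean of M values) in foxo RNAi gut and 110.8 CPM in control gut, against 70.1 CPM in foxo RNAi carcass and 90.4 CPM in control carcass. The thorax, which holds the driver's muscle, had 130.8 CPM in foxo RNAi flies and 183.2 CPM in control flies. Between gut and carcass foxo differed by 0.31 ± 0.19 on the log2 scale (SE) and was not called (edgeR adjusted p = 0.227).

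The 4 libraries held 13274574 to 15621447 counted reads. At that depth 3 reads, the limit that a count of 0 allows, came to between 0.166 and 0.291 CPM (counting error only). The 10 genes with most reads took 15.98% of the counts in foxo RNAi gut and 20.95% in control gut, against 12.04% in foxo RNAi carcass and 15.45% in control carcass. In both guts the serine protease Jon65Aiv was among the first, with 2.94% of the reads in foxo RNAi gut and 3.69% in control gut, beside the protease yip7 and the peptidase CG12374. In both carcasses the yolk protein gene Yp2 led, with 2.35% of the reads in foxo RNAi carcass and 2.68% in control carcass. These shares count reads and are not corrected for gene length.

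Gut and carcass differed at a large part of all genes tested. Of 9293 genes, 4036 passed an adjusted p of 0.05 in edgeR's quasi-likelihood test with genotype as a term, which is 43.4%. Of these, 1921 (20.7% of those tested) were higher in gut and 2115 (22.8%) were lower. The median difference of all tested genes was -0.10 on the log2 scale. The libraries of gut and carcass did not overlap for 1915 of the genes called higher and for 2100 of those called lower. The calls came from these same libraries, so this separation describes the calls and adds no support to them.

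Which side held more genes depended on the size of the difference. More than 4-fold differences were found for 890 genes higher in gut and for 1259 lower ones. More than 16-fold differences were found for 470 higher and 572 lower genes. More than 64-fold differences were found for 304 genes higher in gut and for 161 lower ones. A difference of at least 2-fold in each genotype held for 1382 of the genes called higher and for 1698 of those called lower. In bulk tissue, fewer cells of a type and less RNA per cell cannot be told apart. The p-values rest on 2 residual degrees of freedom and on spread borrowed from other genes (median prior of 3.38 degrees of freedom). The 2 libraries of a tissue come from the 2 genotypes, so all of that spread is between these libraries. It may be technical, or a genotype difference that is not the same in every tissue, and these cannot be told apart.

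The split between higher and lower calls depended on how libraries were scaled. With total counts in place of trimmed means, all genes shifted by a median of -0.67 on the log2 scale, and 1117 genes were called higher and 4077 lower. Of all calls, 21.5% were on the gut side under total counts, against 47.6% under trimmed means. The changes below are relative to the trimmed mean. Counts under total counts, or without 1 library, are given for some of the groups whose split or count they moved. Groups given without them may have moved too. Counts for gene groups below are over tested members only: a member that passed the filter on low counts through 1 tissue alone had to differ, so these counts are descriptions. Without the foxo RNAi gut library the counts were 998 higher and 1093 lower, and without the control gut library 998 higher and 1033 lower.

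**Figure D1:**
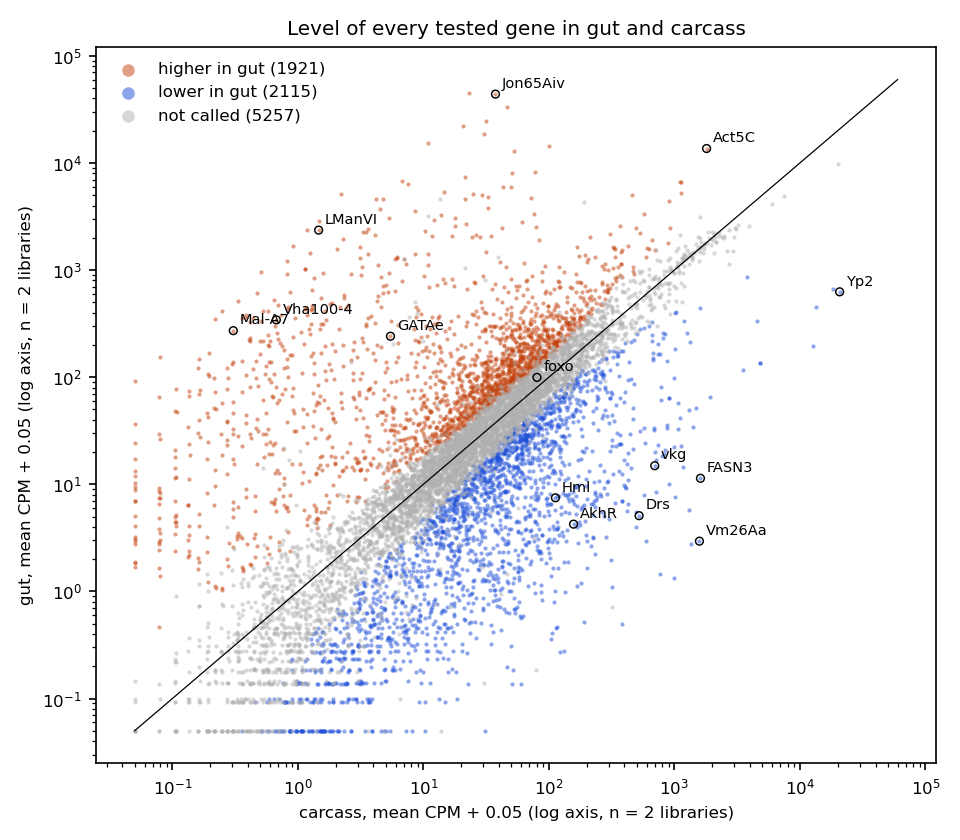
Mean CPM of each of 9293 tested genes in gut (vertical) against carcass (horizontal), with 0.05 added on log axes and the line of equality drawn. Points are coloured by the edgeR call, 1921 higher and 2115 lower in gut, and rings mark named examples.

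Secreted digestive enzymes had the highest medians of the 44 gene lists with more than 1 tested member. All 29 tested members, of 31 in the list of digestive serine proteases, the trypsins and Jonah proteases that cut dietary protein, were higher in gut, with a median of 9.10 on the log2 scale. Without the control gut 18 of them were called, with a median of 8.63. Together they had 142422 CPM in foxo RNAi gut and 248239 CPM in control gut, against 97.0 CPM in foxo RNAi carcass and 843.9 CPM in control carcass. The carcass sum was thus 0.0681% of the gut sum in foxo RNAi flies and 0.34% in control flies.

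The trypsin epsilonTry (chromosome 2R, 11345237 to 11346066, minus strand, Release 6) had 2685 CPM in foxo RNAi gut and 7526 CPM in control gut, against 1.53 CPM in foxo RNAi carcass and 2.82 CPM in control carcass. The difference was 11.20 ± 1.71 on the log2 scale (SE from the fit over all 6 libraries, n = 2 libraries a tissue, edgeR adjusted p = 0.00515). The thorax libraries, which enter that SE, lay further apart than those of gut or carcass, at 17.3 CPM in foxo RNAi flies and 1.55 CPM in control flies. The trypsins are near-identical neighbours, so reads could be split between them. Jon65Aiv (chromosome 3L, 6039155 to 6040135, plus strand) had 35756 CPM in foxo RNAi gut and 51975 CPM in control gut, against 19.8 CPM in foxo RNAi carcass and 55.2 CPM in control carcass. Both guts were far above both carcasses for each protease. In thorax, Jon65Aiv had 211.7 CPM in foxo RNAi flies and 14.3 CPM in control flies, and alphaTry had 136 and 7.81 CPM. The log2 difference of Jon65Aiv was 10.15 ± 1.78 (edgeR adjusted p = 0.00805), and its call ended without the foxo RNAi carcass library, at 9.16. The calls of alphaTry and betaTry ended there too, at 8.97 and 9.58, and alphaTry also without the control gut library, at 8.86. The chymotrypsin-like Jon74E differed by 9.96 ± 1.54 (edgeR adjusted p = 0.00537) and Jon25Bi by 10.25 ± 1.09 (edgeR adjusted p = 0.00163).

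Enzymes that cut sugars and starch followed. Of 19 tested carbohydrases, 17 were higher in gut and 1 was lower, with a median of 8.44. LManVI, a lysosomal-type alpha-mannosidase (chromosome 2L, 8777661 to 8781252, minus strand), had 1911 CPM in foxo RNAi gut and 2808 CPM in control gut, against 2.00 CPM in foxo RNAi carcass and 0.828 CPM in control carcass. It differed by 10.78 ± 0.70 (edgeR adjusted p = 0.000602). The maltase Mal-A7 (chromosome 2R, 8468646 to 8471663, minus strand) had 327.8 CPM in foxo RNAi gut and 215.6 CPM in control gut, against 0.235 CPM in foxo RNAi carcass and 0.276 CPM in control carcass. Its carcass levels lay near the limit that a count of 0 allows. The maltase family did not move as 1: Mal-A5 had 5.73 CPM in foxo RNAi gut and 4.65 CPM in control gut, against 141.0 CPM in foxo RNAi carcass and 110.8 CPM in control carcass (log2 -4.60 ± 0.26, edgeR adjusted p = 0.000602). Mal-A8 and Mal-A6 were higher in gut, at 10.13 ± 0.77 and 9.55 ± 1.36 (edgeR adjusted p = 0.000714 and 0.00409), Mal-A8 overlapping another coding gene. The glucosidase tobi was not called (edgeR adjusted p = 0.163).

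Fat and sterol uptake genes split by family member. Of 14 tested members, 8 were higher in gut and 3 lower, with a median of 3.56, against 7 higher and 4 lower under total-count scaling. The lipase CG8093 had 452.8 CPM in foxo RNAi gut and 417.6 CPM in control gut, against 0.235 CPM in foxo RNAi carcass and 2.27 CPM in control carcass (log2 8.60 ± 0.99, edgeR adjusted p = 0.00206). Npc1b, the sterol absorption transporter of the midgut, differed by 8.06 ± 1.05 (edgeR adjusted p = 0.00308). The soluble sterol-binding proteins Npc2e and Npc2d were higher in gut, at 8.24 ± 0.61 and 8.09 ± 0.84 (edgeR adjusted p = 0.000697 and 0.00152). Their relatives Npc2g and Npc2h were lower in gut, at -5.27 ± 0.26 and -5.23 ± 0.23 (edgeR adjusted p = 0.000602 for both). Npc2g had 9.14 CPM in foxo RNAi gut and 12.8 CPM in control gut, against 328.1 CPM in foxo RNAi carcass and 532.2 CPM in control carcass. The sterol carriers thus held members on both sides with no overlap between libraries. Npc2b was lower in gut too, but its call ended without either gut library (-1.68 without the foxo RNAi gut, -1.58 without the control gut).

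Genes of the gut lining were less uniform. Of 16 tested mucins, peritrophic matrix proteins and gut chitinases, 6 were higher and 3 lower in gut, against 5 of each under total-count scaling. Without the control gut or without the foxo RNAi carcass 2 were higher, and without the foxo RNAi gut 3 were. The mucin Mur29B had 7250 CPM in foxo RNAi gut and 4666 CPM in control gut, against 25.3 CPM in foxo RNAi carcass and 60.2 CPM in control carcass (log2 7.10 ± 0.74, edgeR adjusted p = 0.00156). Muc4B ran the other way, with 0.171 CPM in foxo RNAi gut and 0.0969 CPM in control gut, against 55.8 CPM in foxo RNAi carcass and 47.2 CPM in control carcass (log2 -8.50 ± 0.52, edgeR adjusted p = 0.000602). Of 9 tested genes of the smooth septate junction and brush border 4 were higher and 2 lower, with a median of 0.38. Under total-count scaling 3 were higher and 4 lower, with a median of -0.30, and without the foxo RNAi carcass 2 were higher. The microvillar myosins Myo61F and Myo31DF were higher in gut, at 5.47 ± 0.45 and 3.64 ± 0.37 (edgeR adjusted p = 0.000825 and 0.00142), Myo61F overlapping another coding gene. The smooth septate junction gene mesh, also overlapping, had 4462 CPM in foxo RNAi gut and 3170 CPM in control gut, against 22.6 CPM in foxo RNAi carcass and 43.0 CPM in control carcass. In thorax, which also enters its SE, mesh had 39.0 CPM in foxo RNAi flies and 1.12 CPM in control flies. Its call (log2 6.60 ± 1.61, edgeR adjusted p = 0.0236) ended without the foxo RNAi carcass, at 5.49, and without the control gut, at 5.54. The partners Ssk and Tsp2A lie inside other genes and were not measured. The cadherins Cad99C and Cad87A, placed in this list, were lower in gut, at -6.52 ± 0.30 and -3.32 ± 0.21 (edgeR adjusted p = 0.000602 for both). Both overlap other coding genes.

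Transcription factors and cell type markers of the intestine were measured in both guts. Of 19 tested gut transcription factors, 10 were higher in gut and none was lower, with a median of 2.51, against 9 higher and 3 lower under total-count scaling. GATAe, the endodermal GATA factor, had 231.3 CPM in foxo RNAi gut and 250.9 CPM in control gut, against 4.71 CPM in foxo RNAi carcass and 6.13 CPM in control carcass (log2 5.46 ± 0.69, edgeR adjusted p = 0.00283). The midgut homeobox gene Ptx1 differed by 5.41 ± 0.25 (edgeR adjusted p = 0.000602) and nub, which overlaps another coding gene, by 8.15 ± 0.41 (edgeR adjusted p = 0.000602). Hnf4, the lipid-sensing nuclear receptor, had 108.5 CPM in foxo RNAi gut and 113.6 CPM in control gut, against 109.2 CPM in foxo RNAi carcass and 160.8 CPM in control carcass, and was not called.

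Some progenitor and enteroendocrine markers were higher in gut. Of 11 tested stem cell and enteroblast genes, 6 were higher and 2 lower, against 4 higher and 2 lower under total-count scaling. Without either gut library 3 were higher. Sox21a and esg, both factors of intestinal progenitors, differed by 7.59 ± 0.34 and 5.61 ± 0.53 (edgeR adjusted p = 0.000602 and 0.00117). The Notch ligand Dl had 29.4 CPM in foxo RNAi gut and 15.4 CPM in control gut, against 37.4 CPM in foxo RNAi carcass and 22.9 CPM in control carcass, and was not called. Both lower members, Su(H) and N, lost their call without the foxo RNAi gut (-1.46 and -1.39) and without the control gut (-1.82 and -1.05), and N also without the foxo RNAi carcass (-1.06). Of 19 enteroendocrine genes, 11 were higher in gut and none was lower, against 9 higher under total-count scaling. The peptide hormone gene AstC had 162.3 CPM in foxo RNAi gut and 131.2 CPM in control gut, against 0 CPM in foxo RNAi carcass and 1.55 CPM in control carcass. It differed by 7.71 ± 1.04 (edgeR adjusted p = 0.00344), and by 14.47 without the control carcass, where the remaining carcass was at 0. The hormone genes NPF and Orcokinin differed by 7.36 ± 0.72 and 5.44 ± 0.36 (edgeR adjusted p = 0.00128 and 0.000602). The nutrient-responsive peptide gene CCHa2 was not called.

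Genes of proton transport were on the gut side. Of 22 tested genes of copper cells and the vacuolar proton ATPase, 20 were higher in gut and none was lower. The median of the list was 2.27. lab, the homeobox gene that specifies copper cells, had 25.4 CPM in foxo RNAi gut and 24.5 CPM in control gut, against 0.706 CPM in foxo RNAi carcass and 0.387 CPM in control carcass (log2 5.52 ± 0.41, edgeR adjusted p = 0.000697). The ATPase subunit Vha36-1 had 651.5 CPM in foxo RNAi gut and 674.9 CPM in control gut, against 107.7 CPM in foxo RNAi carcass and 111.3 CPM in control carcass (log2 2.60 ± 0.27, edgeR adjusted p = 0.00152). The membrane subunit Vha100-4, which overlaps another coding gene, differed by 9.17 ± 0.79 (edgeR adjusted p = 0.000951). Vha68-1, a gene for the catalytic subunit, had 12.9 CPM in foxo RNAi gut and 10.1 CPM in control gut, against 11.8 CPM in foxo RNAi carcass and 22.04 CPM in control carcass, and was not called. Under total-count scaling 19 genes of this list were higher and 1 was lower.

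Metal and nutrient carriers were mixed. Of 14 metal-handling genes 7 were higher and 2 lower in gut, against 6 higher and 3 lower under total-count scaling, and 4 were higher without the foxo RNAi carcass. Higher were the metallothioneins MtnC, MtnE and MtnD, at 7.74 ± 0.50, 6.85 ± 0.31 and 6.49 ± 0.31 (edgeR adjusted p = 0.000602 for each). MtnA, the metallothionein of broad use, had 162.5 CPM in foxo RNAi gut and 209.4 CPM in control gut, against 95.8 CPM in foxo RNAi carcass and 267.3 CPM in control carcass. Its libraries overlapped and it was not called. The iron carrier of the blood, Tsf1, was lower in gut (log2 -4.47 ± 0.43, edgeR adjusted p = 0.00124), with 25.6 CPM in foxo RNAi gut and 23.4 CPM in control gut, against 783.7 CPM in foxo RNAi carcass and 391.8 CPM in control carcass.

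Of 25 nutrient transporters 12 were higher in gut and 9 lower, and the median of the list, 0.67, came to about 0 under total-count scaling. Without the control gut 6 were higher and 6 lower, and without the foxo RNAi gut 9 and 5. The zinc transporter Zip42C.2 was at 0 in both carcasses, against 6.24 CPM in foxo RNAi gut and 11.3 CPM in control gut, which is at least 35.4-fold higher against 3 counts per library. The amino acid transporter mnd was lower in gut (log2 -2.92 ± 0.20, edgeR adjusted p = 0.00062).

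**Figure D2:**
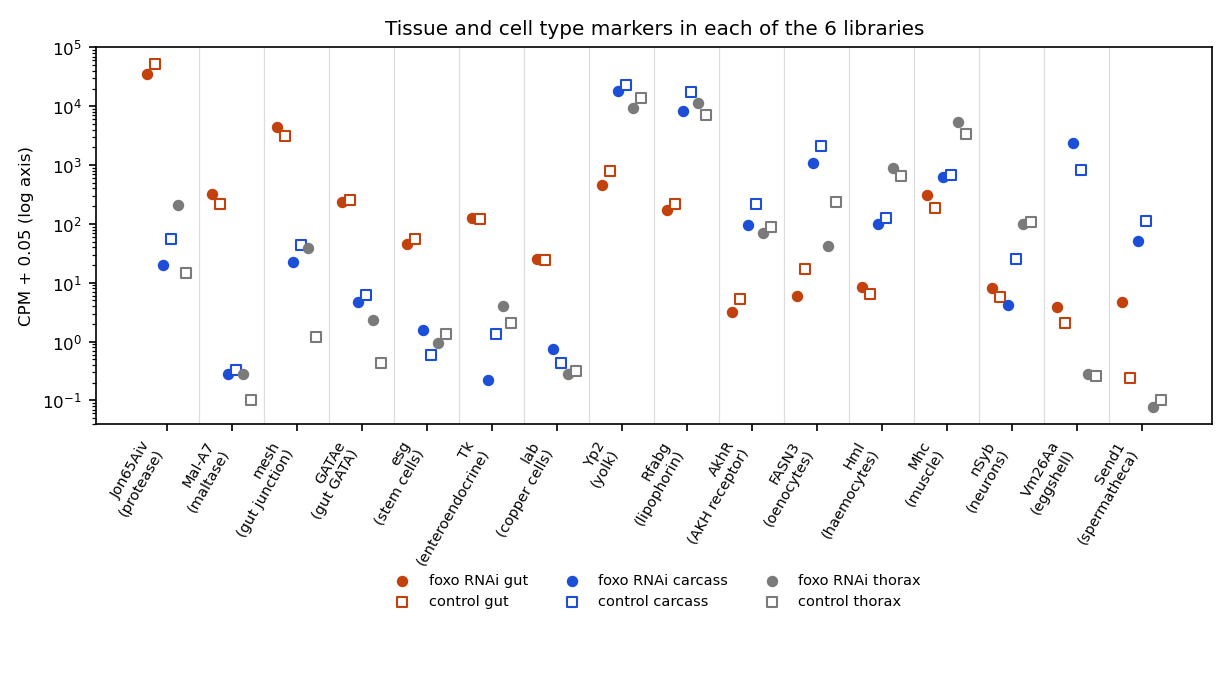
CPM of 16 markers in each of the 6 libraries, with 0.05 added on a log axis; filled circles are foxo RNAi, open squares control, in the order gut, carcass, thorax. Gut markers such as Jon65Aiv and GATAe sit above both carcasses, and yolk, oenocyte, haemocyte, eggshell and spermatheca markers sit above both guts.

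Products of the fat body were on the other side. Of 16 tested yolk, storage and carrier proteins, 10 were lower in gut and 2 higher, with a median of -3.31, against 10 lower and none higher under total-count scaling. Yp2, a yolk protein made in female fat body and in ovarian follicle cells, had 463.6 CPM in foxo RNAi gut and 789.1 CPM in control gut, against 18329 CPM in foxo RNAi carcass and 23087 CPM in control carcass. It differed by -5.09 ± 0.43 (edgeR adjusted p = 0.000905). Yp1 and Yp3 differed by -4.92 ± 0.44 and -4.78 ± 0.49 (edgeR adjusted p = 0.00102 and 0.0015). The gut sum of the list was 3.14% of the carcass sum in foxo RNAi flies and 3.47% in control flies.

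apolpp, listed as Rfabg, encodes the apolipoprotein that carries lipid through the blood. It had 172.7 CPM in foxo RNAi gut and 215.4 CPM in control gut, against 8212 CPM in foxo RNAi carcass and 17334 CPM in control carcass. It overlaps another coding gene, and differed by -6.01 ± 0.63 (edgeR adjusted p = 0.00156). The lipid transfer particle gene Apoltp differed by -5.26 ± 0.45 (edgeR adjusted p = 0.000918). The larval serum protein gene Lsp2 had too few reads to be tested, and Fbp1, the gene of a larval storage protein receptor, was not called. Both genes of the list called higher lost that call when a library was left out: to without the foxo RNAi gut, at 2.14, and without the control gut, at 1.70 (its value was 1.26, still called, without the control carcass), and NLaz without the foxo RNAi gut, at 1.03, the control gut, at 0.96, or the foxo RNAi carcass, at 0.81.

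The enzymes of fat storage did not all follow the fat body markers. Of 24 genes of triglyceride synthesis and storage, 8 were lower and 6 higher in gut, with a median of -0.23. Under total-count scaling 13 were lower and 5 higher, with a median of -0.91. Without the control carcass or without the foxo RNAi gut 3 were lower, without the control gut 5 were, and without the foxo RNAi gut or the foxo RNAi carcass 4 were higher. Jabba and Lsd-1, proteins of the lipid droplet coat, were lower in gut, at -4.97 ± 0.28 and -3.76 ± 0.39 (edgeR adjusted p = 0.000602 and 0.00147), and so was the diacylglycerol acyltransferase mdy, at -3.48 ± 0.28 (edgeR adjusted p = 0.000797). All of these overlap other coding genes. Lsd-1 had 31.6 CPM in foxo RNAi gut and 94.99 CPM in control gut, against 376.1 CPM in foxo RNAi carcass and 1430 CPM in control carcass. The fatty acid synthase FASN1 was lower in gut (log2 -3.72 ± 0.67, edgeR adjusted p = 0.00897), but not without the control carcass, at -2.83, nor without the foxo RNAi gut, at -3.50.

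On the gut side were CG1946 and CG1941, neighbouring acyltransferase genes related to mammalian DGAT2 that could share reads. CG1946 had 17.95 CPM in foxo RNAi gut and 47.1 CPM in control gut, against 0.118 CPM in foxo RNAi carcass and 0.387 CPM in control carcass (log2 6.92 ± 0.74, edgeR adjusted p = 0.00165), and CG1941 differed by 4.59 ± 0.31 (edgeR adjusted p = 0.000614). The glycerol-3-phosphate acyltransferase CG3209, now Gpat4, differed by 2.24 ± 0.22 (edgeR adjusted p = 0.0013). A second droplet protein gene, Lsd-2, had 558.6 CPM in foxo RNAi gut and 866.3 CPM in control gut, against 683.9 CPM in foxo RNAi carcass and 1682 CPM in control carcass, and was not called.

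Of 20 tested genes of lipid breakdown 4 were higher and 4 lower in gut, close to the shares among all genes. Under total-count scaling 3 were higher and 8 lower, and without the foxo RNAi gut 3 were higher and 1 lower, without the control gut 3 and 2. The triglyceride lipase bmm had 219.4 CPM in foxo RNAi gut and 337.4 CPM in control gut, against 72.2 CPM in foxo RNAi carcass and 108.1 CPM in control carcass (log2 1.62 ± 0.21, edgeR adjusted p = 0.00321). AkhR, the receptor through which adipokinetic hormone mobilises fat, had 3.16 CPM in foxo RNAi gut and 5.23 CPM in control gut, against 94.6 CPM in foxo RNAi carcass and 219.6 CPM in control carcass (log2 -5.16 ± 0.32, edgeR adjusted p = 0.000602). The lipase was thus higher in gut, and the hormone receptor was higher in carcass.

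Sugar storage genes were mostly on the carcass side. Of 9 tested genes of glycogen and trehalose metabolism, 7 were lower in gut and 2 higher, also under total-count scaling. Tps1, which makes the blood sugar trehalose, had 72.7 CPM in foxo RNAi gut and 159.7 CPM in control gut, against 2183 CPM in foxo RNAi carcass and 4864 CPM in control carcass (log2 -4.92 ± 0.46, edgeR adjusted p = 0.00111). UGP, which makes the sugar nucleotide used for glycogen and trehalose, differed by -3.65 ± 0.31 (edgeR adjusted p = 0.000893). Both overlap other coding genes, as does Treh. Treh, which splits trehalose, had 1645 CPM in foxo RNAi gut and 1023 CPM in control gut, against 244.2 CPM in foxo RNAi carcass and 425.0 CPM in control carcass. Its call (log2 2.01 ± 0.44, edgeR adjusted p = 0.0162) ended without the foxo RNAi gut, at 1.43, and without the foxo RNAi carcass, at 1.48. Of 13 glycolytic genes 1 was higher, the lactate dehydrogenase gene ImpL3, now Ldh (log2 2.65 ± 0.39, edgeR adjusted p = 0.00455), and 1 lower, against 5 lower under total-count scaling.

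**Figure D3:**
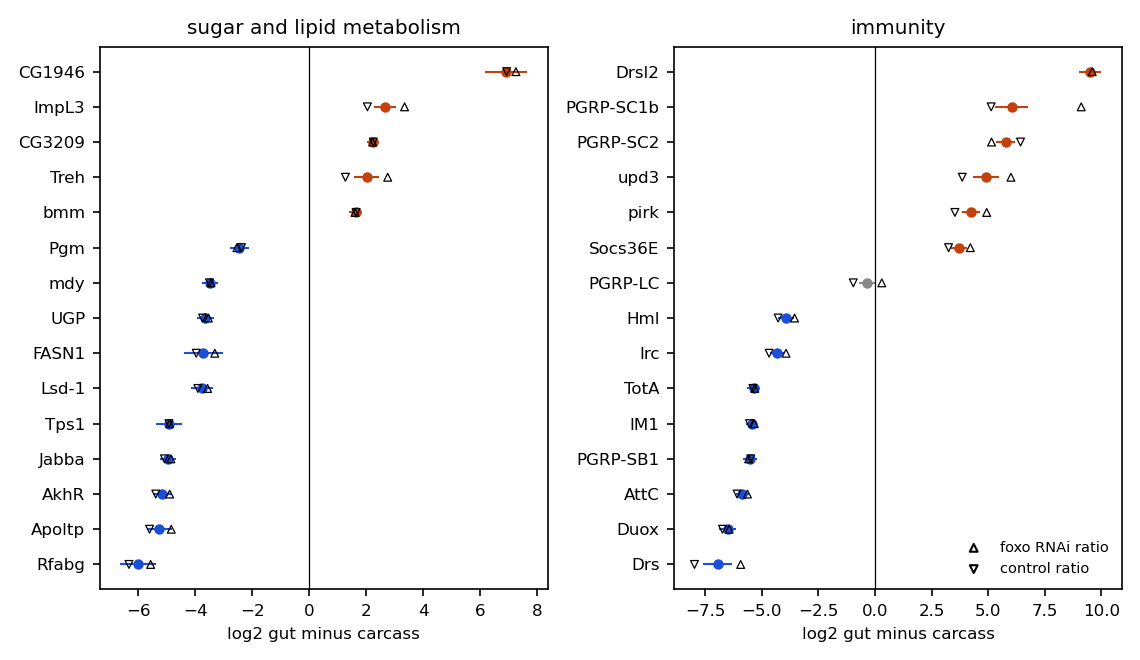
Log2 gut minus carcass of 15 metabolic and 15 immune genes (circles with SE from the edgeR fit over 6 libraries, grey where not called), with the ratio of gut over carcass in each genotype as open triangles. Storage and carrier genes lie left of 0 in both genotypes, and CG1946, Treh, bmm, Drsl2 and PGRP-SC2 lie right of it.

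Oenocyte genes were low in both guts. These cells lie under the abdominal epidermis and make the hydrocarbons of the cuticle. Of 11 tested genes 10 were lower in gut and none was higher, with a median of -6.40. The fatty acid synthase FASN3 had 5.90 CPM in foxo RNAi gut and 16.8 CPM in control gut, against 1075 CPM in foxo RNAi carcass and 2150 CPM in control carcass (log2 -7.29 ± 0.55, edgeR adjusted p = 0.000714). The desaturase Fad2 and the elongase eloF of female pheromone synthesis differed by -6.69 ± 0.58 and -6.82 ± 0.59 (edgeR adjusted p = 0.000938 and 0.000954). The hydrocarbon-forming Cyp4g1 lies inside another gene and was not measured.

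Blood cell, matrix and filtration genes were lower in gut too. Of 17 haemocyte genes 13 were lower and 1 was higher, against 15 lower and 1 higher under total-count scaling. The higher 1 was drpr, a call that ended without the foxo RNAi gut, at 1.34. Hml, the clotting protein of plasmatocytes, had 8.38 CPM in foxo RNAi gut and 6.49 CPM in control gut, against 98.7 CPM in foxo RNAi carcass and 126.6 CPM in control carcass (log2 -3.94 ± 0.34, edgeR adjusted p = 0.00094). fon, the clot protein also made by fat body, and NimC1, a phagocytosis receptor, differed by -5.35 ± 0.33 and -4.18 ± 0.29 (edgeR adjusted p = 0.000602 and 0.00062). Of 18 basement membrane genes 11 were lower and 4 higher in gut, against 14 lower and 4 higher under total-count scaling. vkg, a collagen IV chain, had 14.8 CPM in foxo RNAi gut and 14.9 CPM in control gut, against 659.0 CPM in foxo RNAi carcass and 735.0 CPM in control carcass (log2 -5.56 ± 0.35, edgeR adjusted p = 0.000602). Among the 4 higher ones, Mmp2, a matrix metalloproteinase, and mys, the beta integrin through which cells hold the matrix, differed by 2.52 ± 0.26 and 2.49 ± 0.32 (edgeR adjusted p = 0.00144 and 0.0028). Of 13 nephrocyte and heart genes 10 were lower and 1 higher, but 5 were lower without the control gut and 6 without the foxo RNAi gut. svp, which overlaps another coding gene, was lower at -4.97 ± 0.29 (edgeR adjusted p = 0.000602).

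Eggshell genes were among the genes with the widest gap toward carcass, although the carcass was labelled as freed of eggs. Of 19 tested ovary and eggshell genes, from 24 in the list, 16 were lower in gut, and 19 were under total-count scaling. The list summed to 52.5 CPM in foxo RNAi gut and 45.4 CPM in control gut, against 10664 CPM in foxo RNAi carcass and 4519 CPM in control carcass. Vm26Aa, a vitelline membrane protein (chromosome 2L, 5959596 to 5960340, minus strand), had 3.76 CPM in foxo RNAi gut and 2.03 CPM in control gut, against 2344 CPM in foxo RNAi carcass and 820.7 CPM in control carcass (log2 -8.99 ± 0.50, edgeR adjusted p = 0.000602). The foxo RNAi carcass was the higher of the carcasses. Vm26Ab, Vml and Vm34Ca, further vitelline membrane genes, differed by -9.47 ± 0.65, -9.70 ± 0.45 and -8.96 ± 0.49 (edgeR adjusted p = 0.00062, 0.000602 and 0.000602). osk, the pole plasm gene of the oocyte, had 1.20 CPM in foxo RNAi gut and 4.65 CPM in control gut, against 753.5 CPM in foxo RNAi carcass and 434.0 CPM in control carcass.

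The yolk receptor gene of the oocyte, yl, differed by -7.89 ± 1.38 (edgeR adjusted p = 0.00803), a call that ended without the foxo RNAi carcass, at -6.32, and without the control gut, at -7.36. RpS5b, a ribosomal protein paralog of the ovary, was the only 1 of 83 tested cytosolic ribosomal protein genes that passed the test under trimmed mean scaling. It had 2.82 CPM in foxo RNAi gut and 5.14 CPM in control gut, against 730.1 CPM in foxo RNAi carcass and 262.0 CPM in control carcass. The part of ovary RNA in the other genes lower in gut, the yolk genes included, was not tested. Spermathecal genes were in the carcass as well, with 7 of 12 lower in gut and 2 higher, against 8 lower and 1 higher under total-count scaling. Send2, a spermathecal protease, had 0 CPM in foxo RNAi gut and 0.0969 CPM in control gut, against 2.94 CPM in foxo RNAi carcass and 33.97 CPM in control carcass (log2 -8.26 ± 0.93, edgeR adjusted p = 0.00193).

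Muscle and nerve genes set the tissues apart less, and there the libraries of a tissue disagreed. Of 26 sarcomere genes 9 were lower in gut and 2 higher, against 18 lower and 1 higher under total-count scaling. Leaving out 1 gut or carcass library left between 0 lower, without the control gut, and 6 lower, without the foxo RNAi gut, with 1 without the control carcass and 4 without the foxo RNAi carcass. Mhc, the muscle myosin heavy chain, had 312.5 CPM in foxo RNAi gut and 185.5 CPM in control gut, against 630.0 CPM in foxo RNAi carcass and 688.4 CPM in control carcass. Its call (log2 -1.47 ± 0.38, edgeR adjusted p = 0.0272) ended without any 1 of the 4 libraries, at -1.88 to -1.03. Of 20 neuronal genes 3 were higher and 3 lower in gut, with a median of -1.42. Lower were 12 under total-count scaling, 10 with DESeq2 and 14 without the foxo RNAi carcass, and 1 without the control gut. The synaptic vesicle gene nSyb had 8.03 CPM in foxo RNAi gut and 5.62 CPM in control gut, against 4.06 CPM in foxo RNAi carcass and 25.6 CPM in control carcass, and was not called. brp and Syt1, likewise synaptic, showed the same order of carcasses and were not called. brp had 8.72 CPM in foxo RNAi gut and 4.17 CPM in control gut, against 4.65 CPM in foxo RNAi carcass and 18.1 CPM in control carcass. Of 18 Malpighian tubule genes, 5 were higher and 3 lower in gut, with a median of 0.30, against 2 higher and 4 lower with a median of -0.37 under total-count scaling. Without the control gut or without the foxo RNAi carcass 2 were higher and 2 lower, without the foxo RNAi gut 3 and 1, and without the control carcass 3 and 2. Their sum was 775.0 CPM in foxo RNAi gut and 1109.5 CPM in control gut, against 695.1 CPM in foxo RNAi carcass and 785.1 CPM in control carcass, and the part of tubule RNA in the other results was not tested.

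Genes abundant in thorax differed between libraries of the same tissue. CG16826 had 19243 CPM in foxo RNAi thorax and 22043 CPM in control thorax. It stood at 783.5 CPM in foxo RNAi gut and 26.0 CPM in control gut, against 6.71 CPM in foxo RNAi carcass and 234.1 CPM in control carcass. Its level was thus 4.07% of the thorax level in foxo RNAi gut and 0.118% in control gut, and 0.0349% in foxo RNAi carcass and 1.06% in control carcass. lcs followed the same order of libraries, at 4.87% and 0.314% in foxo RNAi and control gut and at 0.0376% and 1.22% in foxo RNAi and control carcass. Act88F, the flight muscle actin, followed it less steeply, at 0.382% and 0.0600% in foxo RNAi and control gut and at 0.0565% and 0.0882% in foxo RNAi and control carcass. These shares also depend on its thorax level, 2394.7 CPM in foxo RNAi flies and 7267.3 CPM in control flies. Its own level was 9.145 and 4.362 CPM in foxo RNAi and control gut, and 1.353 and 6.407 CPM in foxo RNAi and control carcass. The part of thorax RNA in the muscle and nerve results was not tested.

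Immune genes lay on both sides. Of 29 antimicrobial peptides and immune effectors, 24 were lower in gut and 2 higher, under both scalings, with a median of -4.56. Drs, the antifungal peptide gene drosomycin, had 7.86 CPM in foxo RNAi gut and 2.23 CPM in control gut, against 482.7 CPM in foxo RNAi carcass and 563.5 CPM in control carcass (log2 -6.96 ± 0.63, edgeR adjusted p = 0.00107). The Toll-regulated peptide genes IM1, now BomS1, and IM4, now Dso1, differed by -5.44 ± 0.24 and -4.80 ± 0.30 (edgeR adjusted p = 0.000602 for both). AttC, an attacin that overlaps another coding gene, differed by -5.88 ± 0.29 (edgeR adjusted p = 0.000602).

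The exceptions were relatives of drosomycin. Drsl2 had 91.5 CPM in foxo RNAi gut and 3.10 CPM in control gut, against 0.118 CPM in foxo RNAi carcass and 0 CPM in control carcass (log2 9.52 ± 0.49, edgeR adjusted p = 0.000602). Its carcass level lay below the limit that a count of 0 allows, 0.1765 CPM in foxo RNAi and 0.1657 CPM in control carcass. The size of its difference is thus uncertain, most of all in control flies. Drsl3 was at 0 in both carcasses, against 14.2 CPM in foxo RNAi gut and 9.79 CPM in control gut, at least 55.5-fold higher against 3 counts per library. Both guts lay above both carcasses for both genes, and the guts differed from each other for Drsl2.

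Sensing of bacterial cell wall also split, with 8 of 18 genes higher in gut and 5 lower, and 7 higher and 6 lower under total-count scaling. PGRP-SC2, an amidase that degrades peptidoglycan, had 727.7 CPM in foxo RNAi gut and 791.8 CPM in control gut, against 20.5 CPM in foxo RNAi carcass and 9.17 CPM in control carcass (log2 5.77 ± 0.44, edgeR adjusted p = 0.000714). pirk, an inhibitor of the Imd pathway, was higher in gut, at 4.25 ± 0.41 (edgeR adjusted p = 0.00122). PGRP-SB1, a secreted amidase, and Irc, an immune-regulated catalase, were lower in gut, at -5.53 ± 0.29 and -4.32 ± 0.31 (edgeR adjusted p = 0.000602 and 0.000657). Duox, the oxidase known from gut immunity, had 1.28 CPM in foxo RNAi gut and 0.581 CPM in control gut, against 112.2 CPM in foxo RNAi carcass and 62.2 CPM in control carcass (log2 -6.52 ± 0.38, edgeR adjusted p = 0.000602), and overlaps another coding gene. The receptor PGRP-LC was not called.

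Signalling genes lay on both sides within each list. All tested genes also lay on both sides, with 20.7% called higher and 22.8% called lower in gut. Whether a signalling list departed from these shares was not tested. upd3, a cytokine ligand of the JAK-STAT receptor, had 49.2 CPM in foxo RNAi gut and 19.2 CPM in control gut, against 0.765 CPM in foxo RNAi carcass and 1.33 CPM in control carcass (log2 4.91 ± 0.58, edgeR adjusted p = 0.00224). The pathway's feedback inhibitor Socs36E was higher in gut as well, at 3.71 ± 0.34 (edgeR adjusted p = 0.00109). The Turandot stress peptide gene TotA was lower in gut, at -5.36 ± 0.30 (edgeR adjusted p = 0.000602). The transcription factor gene Stat92E was not called. Of the 12 tested genes of this list 4 were higher and 4 lower, against 3 higher and 6 lower under total-count scaling.

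Of 24 insulin, TOR and adipokinetic hormone genes, 4 were higher and 4 lower in gut, against 1 higher and 12 lower under total-count scaling, and 1 was higher with any 1 gut or carcass library left out. Pi3K21B was higher by 0.65 on the log2 scale and turned to -0.02 there, and its call ended without any 1 of the 6 libraries, at 0.53 to 0.77. Lst, a peptide known to restrain insulin release, had 6.84 CPM in foxo RNAi gut and 14.0 CPM in control gut, against 151.6 CPM in foxo RNAi carcass and 424.7 CPM in control carcass (log2 -4.72 ± 0.36, edgeR adjusted p = 0.000714). Akh, the hormone gene of the corpora cardiaca, had 8.03 CPM in foxo RNAi gut and 11.0 CPM in control gut, against 0.118 CPM in foxo RNAi carcass and 0.221 CPM in control carcass (log2 5.75 ± 0.69, edgeR adjusted p = 0.00238). Among 30 secreted ligands and receptors 10 were higher and 8 lower in gut, against 3 higher and 13 lower under total-count scaling. Without the foxo RNAi gut 3 were higher and 4 lower, without the control gut 5 and 4, without the foxo RNAi carcass 5 and 8, and without the control carcass 8 and 5. The morphogen gene hh differed by 4.67 ± 0.29 (edgeR adjusted p = 0.000602), and the activin-type ligand gene Actbeta by -3.70 ± 0.42 (edgeR adjusted p = 0.00196).

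**Figure D4:**
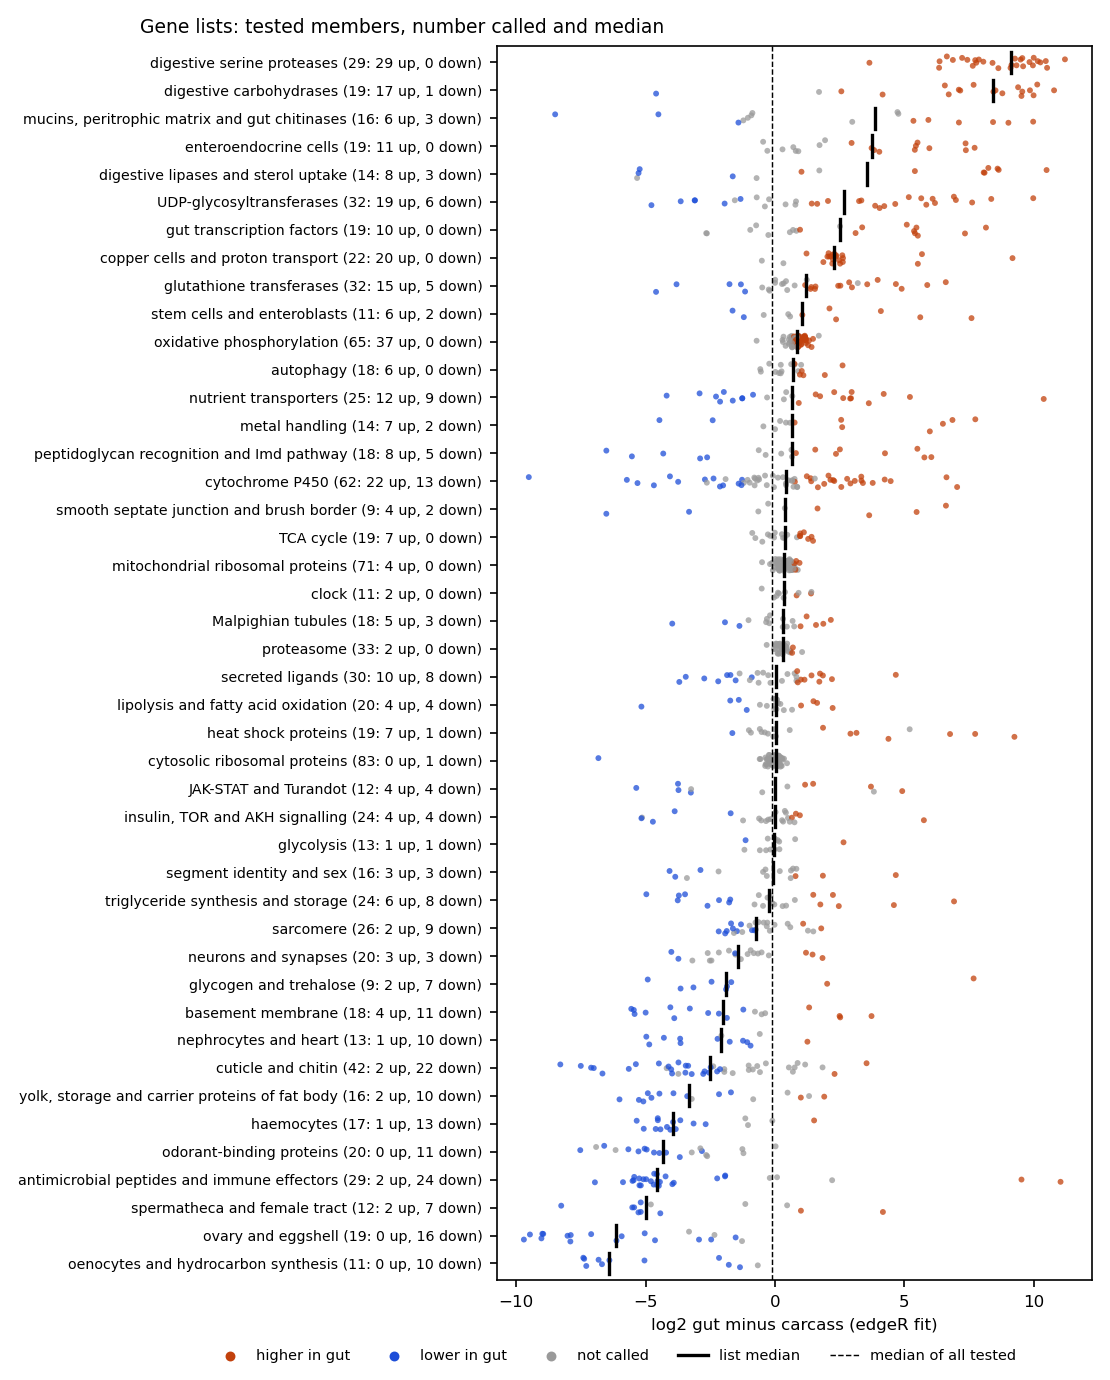
Log2 gut minus carcass of every tested member of 44 gene lists with more than 1 tested member (points), with each list's median (bar) and the median of all tested genes, -0.10 (dashed). Lists run from digestive serine proteases (29 of 29 called higher) to oenocytes (10 of 11 called lower).

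Detoxification families had more genes called higher than lower under the trimmed mean. Of all tested genes 20.7% were called higher and 22.8% lower, and whether a family departed from these shares was not tested. The median of the P450 list was 0.42. Of 32 UDP-glycosyltransferases, which couple sugars to foreign compounds, 19 were higher in gut and 6 lower. Under total-count scaling 19 were higher and 9 lower. CG5724, now Ugt37A2 (chromosome 3R, 12739642 to 12741417, plus strand), had 396.4 CPM in foxo RNAi gut and 311.6 CPM in control gut, against 0.176 CPM in foxo RNAi carcass and 0.497 CPM in control carcass (log2 9.97 ± 1.21, edgeR adjusted p = 0.00246). Of 32 glutathione transferases 15 were higher and 5 lower, against 10 higher and 8 lower under total-count scaling. Without the foxo RNAi gut 9 were higher and 2 lower, without the control gut 13 and 2, and without the foxo RNAi carcass 10 and 2. GstE5 differed by 4.67 ± 0.56 (edgeR adjusted p = 0.0024). Among 62 tested P450 genes 22 were on the gut side and 13 on the carcass side, against 16 higher and 19 lower under total-count scaling, 13 higher and 15 lower without the foxo RNAi carcass, and 16 higher and 8 lower without either gut library. Cyp4ad1 was higher in gut, at 7.03 ± 0.39, and Cyp18a1, which inactivates the moulting hormone, lower, at -4.68 ± 0.30 (edgeR adjusted p = 0.000602 for both).

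Mitochondrial and housekeeping genes had small differences, and their number of calls depended on the scaling and on single libraries. Of 65 genes of oxidative phosphorylation, 37 were higher in gut and none was lower, with a median of 0.84. Under total-count scaling 1 was higher and none lower, with a median of 0.17. Without the control carcass 15 were called higher, without the foxo RNAi carcass 5, without the control gut 2 and without the foxo RNAi gut 1, with medians of 0.76 to 0.89. SdhC, a subunit of succinate dehydrogenase, had 230.6 CPM in foxo RNAi gut and 214.8 CPM in control gut, against 82.6 CPM in foxo RNAi carcass and 78.4 CPM in control carcass (log2 1.47 ± 0.22, edgeR adjusted p = 0.00478), and its call ended without the foxo RNAi gut, at 1.41. Of 19 citric acid cycle genes 7 were higher and none lower, against 1 higher and 5 lower under total-count scaling and 0 to 2 higher with 1 gut or carcass library left out. Of 83 cytosolic ribosomal protein genes 1 was lower and none higher, against 17 lower under total-count scaling. For 33 proteasome genes 2 were higher and none lower, against 3 lower and none higher under total-count scaling, and none was called with any 1 gut or carcass library left out. For 18 autophagy genes 6 were higher and none lower, against 2 higher and 3 lower under total-count scaling, 2 higher without either gut library and 3 without the foxo RNAi carcass. Atg3, the conjugating enzyme of autophagosome formation, was higher in gut, at 1.92 ± 0.22 (edgeR adjusted p = 0.00205).

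Some genes called the same way lay side by side. There were 11 runs of at least 6 neighbouring tested genes higher in gut, which held 79 of the 1921 genes called higher, and 15 runs of lower ones, which held 108 of the 2115. The trypsin cluster (chromosome 2R, 11336840 to 11359176, Release 6) held 11 genes higher in gut with a median of 9.33. The Jonah cluster at 65A (chromosome 3L, 6033199 to 6054443) held 7 with a median of 9.55. On the carcass side, 12 neighbouring genes around the Bomanin peptides (chromosome 2R, 18278198 to 18395282) had a median of -4.85. A run of 8 genes from Ance-3 over the NimB genes to NimC1 (chromosome 2L, 13914725 to 13976769) had a median of -4.48. The vitelline membrane genes at 26A lay in a run of 6 (chromosome 2L, 5956489 to 5967752) with a median of -7.97. Copies in such clusters can share reads.

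The ratio of gut to carcass went the same way in both genotypes for most called genes. The calls came from these same libraries, so this agreement describes the calls and adds no support to them. Among genes called higher, the median of the log2 ratio was 1.94 in foxo RNAi flies and 1.71 in control flies. Among genes called lower, it was -2.27 in foxo RNAi flies and -2.49 in control flies. With 1 library of each tissue in a genotype, these ratios have no replicate check. Tested genes with at least 30 reads over the 4 libraries were screened for opposite ratios. At 14 genes the 95% counting intervals (Clopper-Pearson) of the ratios lay beyond 2-fold in opposite directions. None of the 14 was called, which follows from their selection, since opposite ratios leave little common difference to call. CG45080 was among the 14, with 162.2 CPM in foxo RNAi gut and 4.17 CPM in control gut, against 1.53 CPM in foxo RNAi carcass and 52.2 CPM in control carcass. It was abundant in thorax, with 3742.9 CPM in foxo RNAi flies and 3686.1 CPM in control flies, and the part of thorax RNA in its ratios was not tested.

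**Figure D5:**
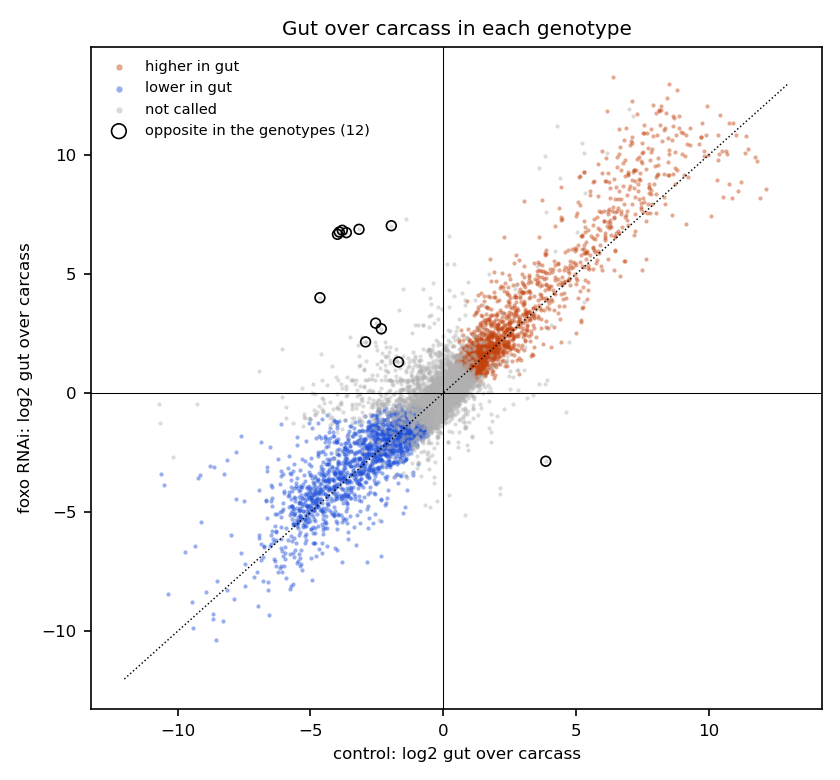
Log2 ratio of gut over carcass in foxo RNAi flies (vertical) against control flies (horizontal) for 8826 genes with reads in all 4 libraries, coloured by the edgeR call. Called genes lie along the dotted line of equality, which calls made from these same libraries favour. Circles mark 12 of the 14 opposite genes, the other 2 having a library at 0.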

How the data were processed

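Total RNA was made into stranded libraries and sequenced as single reads of 50 bases, mapped to Release 6 of the genome, per the series' design text. No source used here names the aligner, the counter, the annotation or the strand setting. The authors deposited 1 table a library with a raw read count and an RPKM value for each of 17609 genes. The deposited RPKM are relative to the whole gene span and the library's counted reads. Of 1815 coding genes lying inside another coding gene on the annotation, 0 had a count, so these were not measured, and 3499 tested genes overlapping another are uncertain. The design text states fewer reads a library than the files count.

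Counts were fitted with edgeR 4.0.16 in R 4.3.3 (filterByExpr, TMM, quasi-likelihood F test, tissue and genotype as terms, all 6 libraries, Benjamini-Hochberg adjusted p under 0.05 over 9293 genes). CPM use effective library sizes. Alternatives used DESeq2 1.42.0 and limma 3.58.1. The 45 gene lists and the members were chosen with earlier results of these data known, and entries that matched no gene or were misassigned were taken out of the lists once the gene names of the files were seen. Named genes are, in each direction, the 12 named and 2 numbered genes with the widest gap between the tissues' libraries, 4 called members a list, 2 uncalled members a list, cell type markers, and foxo. Act88F, yip7, CG12374, Ance-3, the thorax-abundant genes, those opposite by genotype, the non-coding RNAs and the genes drawn in figures were chosen after their values were seen.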

Additional observations from a re-analysis of the deposited data

Results flagged for a closer look

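At 14 genes the gut to carcass ratio went in opposite directions in the genotypes, the counting interval of each ratio lying beyond 2-fold. The difference between genotypes was not tested, since each rests on 1 library of gut and 1 of carcass. Each value below is the log2 ratio in foxo RNAi flies minus that in control flies, with libraries under 3 counts set to 3.

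Most of these genes were higher in gut in foxo RNAi flies and lower in gut in control flies. The value was 10.67 for CG1678 (now whe), 10.64 for CG33109, 10.63 for CG34212, 10.38 for CG45080 and 10.04 for CG16826. It was 9.23 for CG44142, 8.98 for lcs and 6.04 for CG32198. It was 7.05 for trp, the light-activated channel gene of photoreceptors, with 11 reads in foxo RNAi gut and 24 in control gut, against 1 in foxo RNAi carcass and 1051 in control carcass. It was 5.48 for Hdc, the histamine-forming enzyme, 5.07 for CG11000, 5.03 for CG42795 and 2.99 for CG6912. CG9411 ran the other way, at -6.72. Apart from CG6912, CG9411 and trp, these genes had more CPM in both thorax libraries than in any gut or carcass library. CG1678 had 4444.5 CPM in foxo RNAi thorax and 7266.2 CPM in control thorax, and CG33109 had 1037.8 and 878.1 CPM. The part of thorax RNA in these ratios was not tested.

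For 1197 genes, 1046 of them non-coding RNAs, the count column held 0 in every library and the RPKM column did not, so reads were recovered from RPKM. The values here are the log2 gap between the tissues' libraries. CR44310 had a gap of 6.41, with 176 reads in foxo RNAi gut and 332 in control gut, against 0 in both carcasses. CR44758 had a gap of 5.61, also toward gut, with 158 reads in foxo RNAi gut and 145 in control gut, against 2 in foxo RNAi carcass and 5 in control carcass. CR44035 had a gap of 5.39 toward carcass, with 3 reads in foxo RNAi gut and 1 in control gut, against 207 in foxo RNAi carcass and 555 in control carcass. pncr016:2R had a gap of 3.88 toward carcass, with 1 read in foxo RNAi gut and 5 in control gut, against 121 in foxo RNAi carcass and 234 in control carcass.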

How the results depend on the processing

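The counts of genes higher and lower in gut stayed within 1.5 times under the median-ratio factors, no filter, DESeq2, limma-voom, the 4 libraries alone and no genotype term. They moved under total counts (1117 higher, 4077 lower), limma on log2(RPKM + 0.1) (1137 higher, 4041 lower) and a test against a 2-fold change (1018 higher, 1249 lower). Without genes overlapping another coding gene 1240 were higher and 1332 lower, but only 5804 genes were tested there, against 9293. Of those calls 48.2% were on the gut side, against 47.6% in the main fit. Leaving out each library in turn gave 998 to 1902 higher and 1033 to 2153 lower genes; a tissue left with 1 library is assumed to vary like the others. Total counts and RPKM turned the direction of Rpn7 (-0.0129 and -0.0104, against 0.66) and Pi3K21B (-0.0203 and -0.0227, against 0.65), under a median shift of all genes of -0.67 and -0.56. Genotype, the only label shared by a gut and a carcass library, was already a term of the fit, so the fit without it is the unpaired one (1952 higher, 2215 lower). Genes near 3 counts a library, genes inside other genes and near-identical copies limit what these counts show.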

Other observations

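Odorant-binding proteins, small carriers best known from sense organs, were on the carcass side, with 11 of 20 tested genes lower in gut and none higher. Under total-count scaling 14 were lower. Obp99c, which overlaps another coding gene, had 26.8 CPM in foxo RNAi gut and 38.4 CPM in control gut, against 868.7 CPM in foxo RNAi carcass and 1279 CPM in control carcass (log2 -5.04 ± 0.35, edgeR adjusted p = 0.000623). Of 42 tested cuticle and chitin genes 22 were lower and 2 higher, and 9 were lower without the control gut and 10 without the foxo RNAi gut. Cpr49Ab, a cuticle protein gene, differed by -8.30 ± 0.56 (edgeR adjusted p = 0.000614). Both higher ones lost their call: TwdlBeta, at 2.58 to 4.29, without either gut library or the control carcass, and Cpr78E, at 1.61 to 3.15, without any 1 of the 6 libraries.

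Of 19 tested heat shock genes 7 were higher in gut and 1 lower, against 7 higher and 7 lower under total-count scaling. Hsp23, a small heat shock protein gene, had 48.9 CPM in foxo RNAi gut and 104.3 CPM in control gut, against 2.65 CPM in foxo RNAi carcass and 4.47 CPM in control carcass (log2 4.38 ± 0.25, edgeR adjusted p = 0.000602). Of 16 tested genes of segment identity and sex, 3 were higher in gut, 3 lower and 10 not called, with a median of -0.07. Under total-count scaling 1 was higher and 8 lower. Of all tested genes 20.7% were called higher and 22.8% lower. The Hox genes of the abdomen, Ubx, abd-A and Abd-B, were lower in gut, at -4.08 ± 0.36, -3.86 ± 0.36 and -2.88 ± 0.40 (edgeR adjusted p = 0.00102, 0.00114 and 0.00384). Of 11 tested clock genes 2 were higher in gut, none was lower and 9 were not called, against 1 higher and 2 lower under total-count scaling. The clock gene tim was higher in gut, at 1.39 ± 0.20 (edgeR adjusted p = 0.00457).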
